A study of Homo sapiens with 30 samples.

Results

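The mevalonate and sterol pathway makes cholesterol from acetyl-CoA, and 32 of its genes were followed here in HepG2 cells, a human hepatocellular carcinoma line widely used as a hepatocyte model, after 24 h with ethanol extracts of tonifying herbal formulas. The genes were taken by name, with earlier results of these data known. They hold 19 genes of cholesterol synthesis, 4 of sterol sensing, 5 of sterol transport, uptake control and esterification, and 4 of the liver X receptor (LXR) and efflux arm. All 32 were found by Ensembl identifier among the 60675 rows of the table, and 30 of them were among the 16083 genes with enough counts to be tested. INSIG1 and ABCG1 had too few counts. The 30 libraries form 13 groups: Palmul-tang, Sibjeondaebo-tang, Samul-tang and Sagunja-tang extract, each at 20 (low), 100 (medium) or 500 (high) µg/mL, and a vehicle of 0.1% DMSO. There were 3 libraries at each dose of Palmul-tang and Sibjeondaebo-tang and in the vehicle group, 2 at each dose of Samul-tang and 1 at each dose of Sagunja-tang. Traditionally the herbs of Palmul-tang are those of Samul-tang plus those of Sagunja-tang, and Sibjeondaebo-tang is built on Palmul-tang with cinnamon and Astragalus.

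In the liver, cholesterol synthesis is set by feedback. When sterols are low in the endoplasmic reticulum, SCAP escorts the transcription factor precursor SREBP2 (gene SREBF2) to the Golgi, where it is cut free to switch on the synthesis genes. When sterols are plentiful, INSIG proteins hold SCAP back and the same genes are turned down, while oxysterols activate the LXRs, which raise efflux pumps such as ABCA1.

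Levels are in CPM, read counts relative to library size with each library scaled by the trimmed mean of M values (TMM). A gene is said to have risen or fallen where edgeR's quasi-likelihood test gave an adjusted p under 0.05, with Benjamini-Hochberg adjustment over all 16083 genes, and log2 fold changes carry a standard error (SE). The labels do not state whether the replicates came from separate cultures; the tests therefore weigh differences against a spread that may be technical. The sample names put the vehicle libraries, those of Samul-tang with Sagunja-tang, and those of Palmul-tang with Sibjeondaebo-tang in 3 sets under different prefixes, so in comparisons with vehicle the treatment and the set cannot be told apart. High against low dose, and Sibjeondaebo-tang against Palmul-tang, stay within a set.

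Each library held 21570416 to 37707232 expected counts in total, and mitochondrial transcripts took 11.2% to 19.7% of them. All 8 hepatocyte markers, among them albumin, were detected in every library. Their summed level was lower at high than at low dose. It was 30923 to 31743 CPM in Palmul-tang high and 35756 to 36562 CPM in Palmul-tang low. It was 32236 to 32738 CPM in Sibjeondaebo-tang high and 36069 to 37039 CPM in Sibjeondaebo-tang low. It was 32288 to 33648 CPM in Samul-tang high and 36647 to 38583 CPM in Samul-tang low. The change was not a steady one from vehicle, at 34922 to 35722 CPM, and the Samul-tang medium libraries were at 35893 and 40971.5 CPM. The 9 fibroblast markers other than FN1, which HepG2 cells express themselves, summed to 3.97 to 5.16 CPM in Palmul-tang high and 6.57 to 7.62 CPM in Palmul-tang low, 5.27 to 5.54 CPM in Sibjeondaebo-tang high and 7.09 to 34.25 CPM in Sibjeondaebo-tang low, and 5.33 to 5.47 CPM in Samul-tang high and 7.30 CPM in both Samul-tang low libraries. The 34.25 CPM was in Sibjeondaebo-tang low replicate 3 alone, and collagen COL1A2 and decorin (DCN) were at 0 in 28 and 29 of the 30 libraries. The 4 leukocyte markers summed to 1660 to 1769 CPM in Palmul-tang high and 1353 to 1497 CPM in Palmul-tang low, 1618 to 1822 CPM in Sibjeondaebo-tang high and 1401 to 1502 CPM in Sibjeondaebo-tang low, and 1565 to 1654 CPM in Samul-tang high and 1378 to 1553 CPM in Samul-tang low. Nearly all of that sum was lysozyme (LYZ), while PTPRC, the pan-leukocyte marker, was at 0 in 29 libraries and CD3E in 28. The part of these shifts in the results on sterol genes was not tested, and in a bulk sample fewer cells of a type and less RNA per cell cannot be told apart. Samul-tang medium replicates 2 and 3 lay farther apart than any other replicate pair, at 30.9 times counting noise, against 2.92 to 18.8 for the rest. For Sibjeondaebo-tang low and Samul-tang medium, the counts of sterol genes called against vehicle are given with and without these libraries. The same holds for Sibjeondaebo-tang high against low and for Sibjeondaebo-tang against Palmul-tang at low dose. Shared calls, separated libraries, differences between effects and the further gene lists are given with all libraries only.

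The promoters are where SREBP2 acts on these genes, together with the factor NF-Y, which binds CCAAT, so the 200 bases before the start site are shown for HMGCS1, MVK, FDPS and LSS, which fell with dose in each of the 3 replicated formulas, for SREBF2, which was called in none of them, and for INSIG2, which rose in 2. Capitals mark CCAAT (or ATTGG, the same motif on the other strand) and a sterol regulatory element core written TCACNCCAC, read on both strands; no marked match overlaps another. The sequences are RefSeq's on GRCh38.p14 and run toward the start site: HMGCS1 at chr5:43313413-43313612, minus strand; MVK at chr12:109573594-109573793, plus strand; FDPS at chr1:155308666-155308865, plus strand; LSS at chr21:46228775-46228974, minus strand; SREBF2 at chr22:41832905-41833104, plus strand; INSIG2 at chr2:118088271-118088470, plus strand.
HMGCS1: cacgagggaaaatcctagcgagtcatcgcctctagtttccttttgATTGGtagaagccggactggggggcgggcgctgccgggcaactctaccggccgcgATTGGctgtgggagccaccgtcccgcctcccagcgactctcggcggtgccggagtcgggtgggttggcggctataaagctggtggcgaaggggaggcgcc
MVK: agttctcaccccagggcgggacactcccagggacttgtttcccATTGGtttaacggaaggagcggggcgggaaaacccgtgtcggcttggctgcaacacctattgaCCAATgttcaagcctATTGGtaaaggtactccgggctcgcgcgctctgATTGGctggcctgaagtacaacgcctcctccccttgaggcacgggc
FDPS: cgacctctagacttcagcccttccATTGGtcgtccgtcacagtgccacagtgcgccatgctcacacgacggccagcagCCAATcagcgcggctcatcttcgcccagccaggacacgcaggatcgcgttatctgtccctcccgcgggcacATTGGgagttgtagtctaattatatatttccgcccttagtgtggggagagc
LSS: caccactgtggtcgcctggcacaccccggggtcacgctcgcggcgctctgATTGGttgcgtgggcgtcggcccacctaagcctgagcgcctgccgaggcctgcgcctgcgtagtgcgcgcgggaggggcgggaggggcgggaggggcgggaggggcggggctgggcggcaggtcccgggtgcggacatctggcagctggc
SREBF2: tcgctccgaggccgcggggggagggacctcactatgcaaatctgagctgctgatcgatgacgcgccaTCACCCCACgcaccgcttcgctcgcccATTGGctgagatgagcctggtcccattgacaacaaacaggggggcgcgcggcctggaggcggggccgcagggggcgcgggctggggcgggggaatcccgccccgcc
INSIG2: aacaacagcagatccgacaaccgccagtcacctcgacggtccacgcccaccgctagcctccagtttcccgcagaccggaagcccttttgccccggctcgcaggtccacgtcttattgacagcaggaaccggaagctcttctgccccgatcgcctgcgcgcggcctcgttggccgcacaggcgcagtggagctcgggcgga
The first 4 stretches shown and that of SREBF2 hold CCAAT in 1 or more copies, while the INSIG2 stretch holds neither motif. HMGCS1 and INSIG2 have 2 start-site windows each in the source, and the first is shown. The second window of each gene held 0 CCAAT and 0 sterol element cores. Of the 32 genes, 27 had a promoter in the table, each scanned from 250 bases before to 50 after the start. A gene was counted where any of its windows held the motif. CCAAT was found in 14 of the 16 synthesis genes with a promoter and in 20 of all 27, against 39.7% of the 27305 genes in the table. GGGCGG, the GC box, was found in 25 of 27 genes against 48.3%, and the E-box CACGTG in 5 of 27 against 8.77%. The sterol element core was found in SREBF2 alone, 133 bases before its start, and in 1.39% of all genes. These matches describe the letters in the window and are not measured binding sites.

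High dose was compared with low dose in each formula to ask what a rise from 20 to 500 µg/mL did within a library set. Because the genes were chosen with earlier results known, their counts beside all genes are not an independent test. In Palmul-tang, 16 of the 30 tested sterol genes fell and 2 rose, where 3.03% of all genes fell and 3.75% rose. Of the 19 synthesis genes, 15 fell and all 19 had log2 fold changes below 0, with a median of -0.23, or a level 15.0% lower. In Sibjeondaebo-tang, 9 of the 30 fell and 3 rose, where 9.44% of all genes fell and 10.4% rose, and of the 19 synthesis genes 8 fell and 17 lay below 0 (median -0.10). In Samul-tang, 6 of the 30 fell and 0 rose, where 0.715% of all genes fell and 0.709% rose, and all 6 were synthesis genes, of which 18 of 19 lay below 0 (median -0.21). The median over all tested genes was 0.002 in Palmul-tang, 0.02 in Sibjeondaebo-tang and -0.002 in Samul-tang.

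The genes that fell overlapped between the formulas, which share no libraries in these comparisons. The formulas do share herbs by tradition, and 1 fit gave the spread for all, so the calls are not independent. The overlap of calls over all genes was not counted. HMGCS1, MVK, FDPS, SQLE and LSS fell in all 3. Palmul-tang shared 9 genes with Sibjeondaebo-tang, which are 9 of 16 and 9 of 9, and 6 with Samul-tang, which are 6 of 16 and 6 of 6. INSIG2 and NPC1 rose in both Palmul-tang and Sibjeondaebo-tang. The high libraries lay wholly below the low libraries for 19 of 30 genes in Palmul-tang, 13 in Sibjeondaebo-tang and 21 in Samul-tang, where 11.3%, 17.1% and 20.8% of all genes did so. With 1 library left out, the count of calls in Palmul-tang was 14 to 18, against 18 with all. In Sibjeondaebo-tang it was 7 without low replicate 1 and 10 without low replicate 3, the library with fibroblast transcripts, against 12. In Samul-tang, with 2 libraries per dose, it fell to 1 without high replicate 2, high replicate 3 or low replicate 2 and to 2 without low replicate 3, against 6, and it was 3 with no filter on low counts or when only high and low Samul-tang were fitted, where MVK, IDI1 and SQLE lost the call. For Sibjeondaebo-tang, removing mitochondrial genes before scaling left the sterol count at 12 but turned the calls over all genes to 1166 higher and 1719 lower, against 1673 and 1518, while 18 of the 19 synthesis genes then lay below 0; mitochondrial transcripts took 17.2% to 19.4% of counts in Sibjeondaebo-tang high and 15.7% to 17.04% in Sibjeondaebo-tang low.

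**Figure D1:**
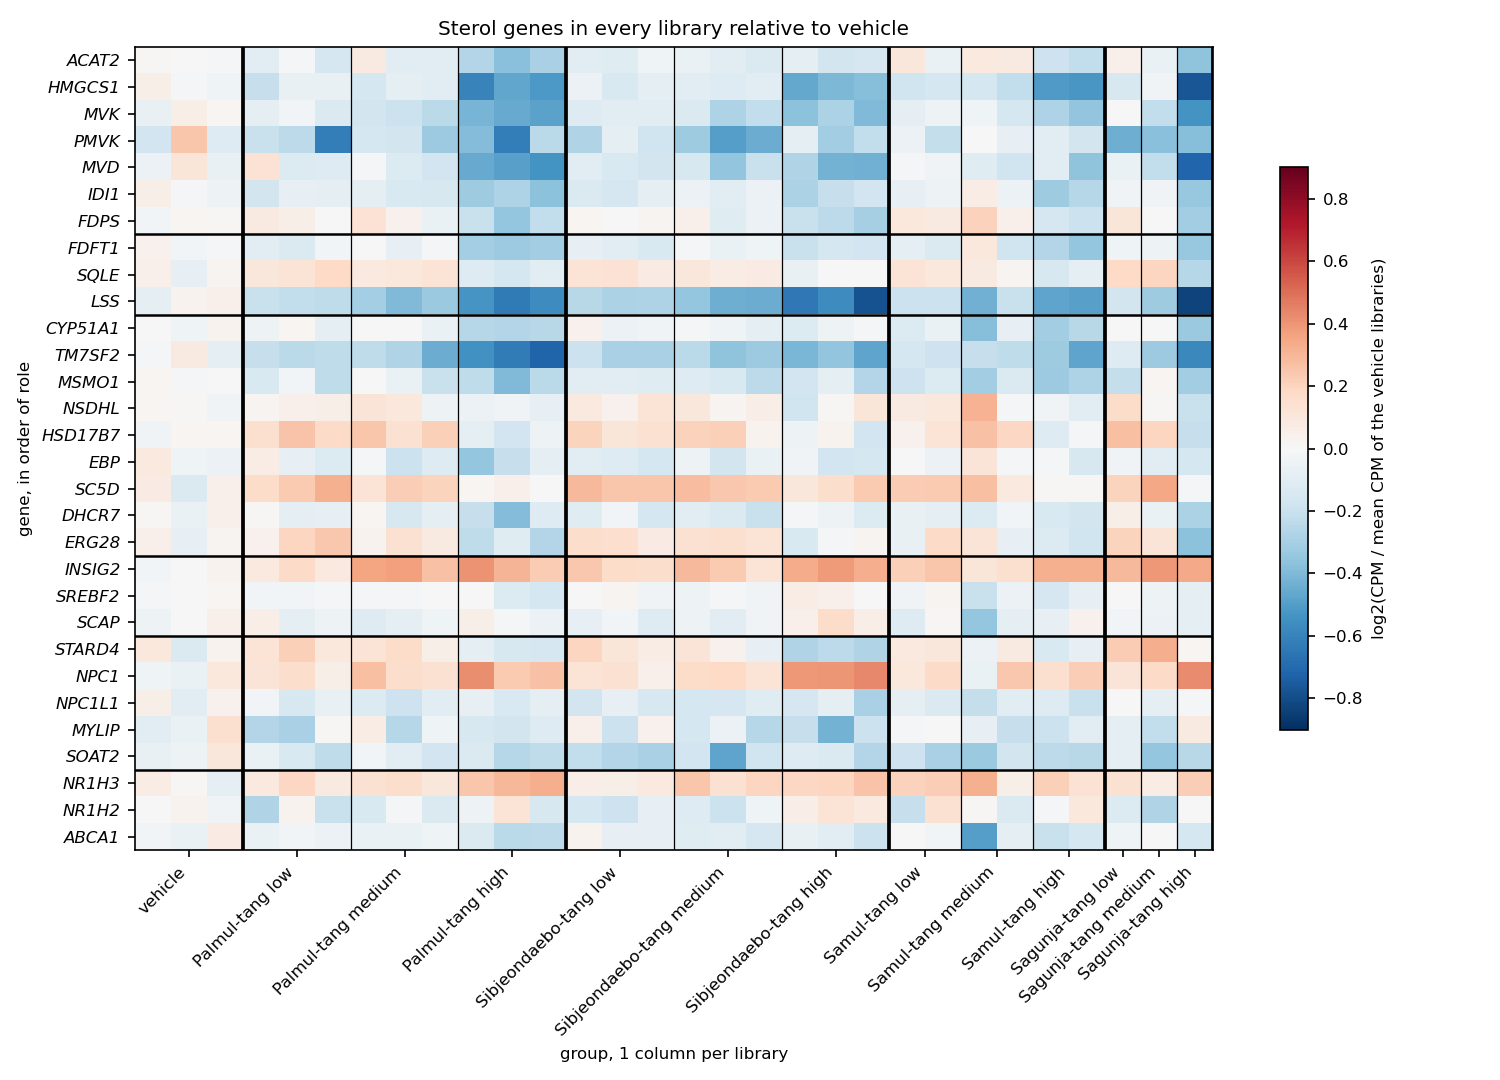
Level of the 30 tested sterol genes (rows, grouped by role) in each of the 30 libraries (columns), as the log2 ratio of CPM to the mean CPM of the 3 vehicle libraries, blue for lower and red for higher. The high-dose columns of every formula are blue for most synthesis genes, with HMGCS1 and LSS among the deepest, and red for INSIG2 and NPC1.

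The first steps, from acetyl-CoA to farnesyl diphosphate, are run by 7 of the genes, and 6 of them fell in Palmul-tang high, 4 in Sibjeondaebo-tang high and 4 in Samul-tang high. HMGCS1 (ENSG00000112972, chromosome 5, 43289395 to 43313512, minus strand) makes HMG-CoA, the substrate of the step on which statins act. It was at 405, 443 and 429 CPM in Palmul-tang high, against 532, 585 and 586 CPM in Palmul-tang low. It was at 445, 464 and 469 CPM in Sibjeondaebo-tang high, against 591, 557 and 581 CPM in Sibjeondaebo-tang low. In Samul-tang high it was at 431 and 427 CPM, against 541 and 548 CPM in Samul-tang low. Each high library lay below each low library of its formula, and all 3 comparisons passed the test. The log2 fold change was -0.42 ± 0.045 (SE), adjusted p = 1.02e-07 in Palmul-tang. It was -0.33 ± 0.045 (SE), adjusted p = 2.57e-06 in Sibjeondaebo-tang and -0.34 ± 0.055 (SE), adjusted p = 0.000272 in Samul-tang. HMGCS1 alone among the 6 genes called in Samul-tang kept its call whichever of the 4 libraries was left out; for the other 5 the adjusted p was then 0.0506 to 0.34.

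MVK (ENSG00000110921, chromosome 12, 109573255 to 109598117, plus strand), mevalonate kinase, phosphorylates mevalonate. Its level was 57.2, 56.0 and 54.9 CPM in Palmul-tang high, against 72.1, 75.3 and 69.9 CPM in Palmul-tang low, a log2 fold change of -0.37 ± 0.049 (SE), adjusted p = 3.42e-06. In Sibjeondaebo-tang high it was 59.2, 62.9 and 58.2 CPM, against 70.7, 71.6 and 71.5 CPM in Sibjeondaebo-tang low (-0.25 ± 0.049 (SE), adjusted p = 0.000442). In Samul-tang high it was 63.3 and 59.9 CPM, against 72.3 and 74.2 CPM in Samul-tang low (-0.25 ± 0.059 (SE), adjusted p = 0.0203). The groups did not overlap in any of the 3 formulas. MVD (ENSG00000167508, chromosome 16, 88651935 to 88663161, minus strand), which decarboxylates mevalonate diphosphate, had the lowest log2 fold change of all the sterol genes in Palmul-tang. It was at 128, 125 and 121 CPM in Palmul-tang high, against 192, 161 and 161 CPM in Palmul-tang low (-0.45 ± 0.071 (SE), adjusted p = 7.99e-05). In Sibjeondaebo-tang high it was at 145, 131 and 129.7 CPM, against 163, 159 and 156 CPM in Sibjeondaebo-tang low (-0.24 ± 0.071 (SE), adjusted p = 0.017), a call lost without low replicate 1 (adjusted p = 0.0621), high replicate 2 (0.0724) or high replicate 3 (0.0712).

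FDPS (ENSG00000160752, chromosome 1, 155308748 to 155320666, plus strand), farnesyl diphosphate synthase, fell in all 3 formulas. It was at 209.5, 189 and 206 CPM in Palmul-tang high, against 254, 249 and 241 CPM in Palmul-tang low (-0.30 ± 0.051 (SE), adjusted p = 0.000175). It was at 209, 204 and 195 CPM in Sibjeondaebo-tang high, against 243, 239.7 and 244 CPM in Sibjeondaebo-tang low (-0.26 ± 0.051 (SE), adjusted p = 0.000478). In Samul-tang high it was at 216 and 209.7 CPM, against 256 and 254 CPM in Samul-tang low (-0.26 ± 0.063 (SE), adjusted p = 0.0219). FDPS shares 18.6% of its exonic bases with the antisense gene RUSC1-AS1 and has pseudogenes. HMGCS1 (15%) and IDI1 (14.8%) also share exonic bases with an antisense gene, and CYP51A1 and HSD17B7 also have pseudogenes. The sources used here do not give whether counting used the strand, so the levels of these genes are less certain. IDI1, the isopentenyl diphosphate isomerase, fell in Palmul-tang, at 170.3, 175 and 165 CPM in the high libraries, against 190.0, 202 and 200.1 CPM in the low ones. It also fell in Samul-tang, at 171 and 178 CPM in the high libraries, against 202 and 207 CPM in the low ones. High and low libraries did not overlap in either, and the Samul-tang log2 fold change was -0.23 ± 0.054 (SE). ACAT2, a thiolase at the start of the pathway, was at 246, 229 and 242 CPM in Palmul-tang high, against 277, 292 and 266 CPM in Palmul-tang low, and fell by a call that was lost without low replicate 2 (adjusted p = 0.0507). ACAT2 overlaps SOD2 and TCP1 on the other strand. PMVK, phosphomevalonate kinase, was low throughout at 5.30 to 9.73 CPM and was not called between high and low dose (-0.07 ± 0.12 in Palmul-tang, SE). Against vehicle it fell at 3 doses, and at none of them was the call kept in every alternative.

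Squalene is then made from farnesyl diphosphate and folded into lanosterol by 3 enzymes, all of which fell in Palmul-tang high. LSS (ENSG00000160285, chromosome 21, 46188141 to 46228824, minus strand), lanosterol synthase, closes the sterol rings. It was at 191, 178 and 187 CPM in Palmul-tang high, against 241, 238 and 237 CPM in Palmul-tang low (-0.36 ± 0.054 (SE), adjusted p = 2.12e-05). It was at 178, 187 and 160.4 CPM in Sibjeondaebo-tang high, against 233, 227 and 228 CPM in Sibjeondaebo-tang low (-0.39 ± 0.054 (SE), adjusted p = 2.31e-06), and this was the lowest log2 fold change of the sterol genes in that formula. In Samul-tang high it was at 199 and 198 CPM, against 243 and 242 CPM in Samul-tang low (-0.29 ± 0.065 (SE), adjusted p = 0.0147). The groups were far apart in each formula beside the spread of their libraries. Its mean was lower at each higher dose, though neighbouring doses were not tested against each other: it was 277 ± 13.3 CPM in vehicle, then 238 ± 2.13, 218 ± 7.07 and 186 ± 6.63 CPM at 20, 100 and 500 µg/mL of Palmul-tang (SD, n = 3), and 229 ± 3.41, 208 ± 7.91 and 175 ± 13.4 CPM at the same doses of Sibjeondaebo-tang. The vehicle libraries are in another set, so the step from vehicle to 20 µg/mL cannot be told from a set difference.

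SQLE (ENSG00000104549, chromosome 8, 124998497 to 125022283, plus strand), squalene epoxidase, is a slow step of the pathway. It was at 452, 439 and 457 CPM in Palmul-tang high, against 526, 534 and 555 CPM in Palmul-tang low (-0.26 ± 0.041 (SE), adjusted p = 5.35e-05). In Sibjeondaebo-tang high it was at 467, 489 and 490.3 CPM, against 535, 536 and 517 CPM in Sibjeondaebo-tang low (-0.13 ± 0.041 (SE), adjusted p = 0.0185). In Samul-tang high it was at 444 and 462 CPM, against 534 and 525 CPM in Samul-tang low (-0.22 ± 0.05 (SE), adjusted p = 0.0123). The fall in Sibjeondaebo-tang was the smallest of its 9 called falls and was lost without high replicate 1 (adjusted p = 0.0937), low replicate 1 (0.0674) or low replicate 2 (0.0728). FDFT1, squalene synthase, was at 547, 541 and 545 CPM in Palmul-tang high, against 634, 619.8 and 666 CPM in Palmul-tang low (-0.23 ± 0.049 (SE), adjusted p = 0.00214). It was not called within Sibjeondaebo-tang (-0.08 ± 0.049, SE) or Samul-tang (-0.20 ± 0.06, SE).

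From lanosterol to cholesterol, 9 genes were followed, and 6 fell in Palmul-tang high, 2 in Sibjeondaebo-tang high and 0 in Samul-tang high at an adjusted p under 0.05. TM7SF2 (ENSG00000149809, chromosome 11, 65111845 to 65116384, plus strand), a sterol reductase, was at 56.0, 52.8 and 49.6 CPM in Palmul-tang high, against 70.7, 69.0 and 69.7 CPM in Palmul-tang low (-0.40 ± 0.058 (SE), adjusted p = 1.38e-05). ERG28, which is thought to hold the demethylation enzymes together, was at 101, 110.1 and 98.8 CPM in Palmul-tang high, against 122, 136 and 141 CPM in Palmul-tang low (-0.36 ± 0.061 (SE), adjusted p = 0.000142). HSD17B7, the keto reductase of that complex, was at 39.4, 37.0 and 40.3 CPM in Palmul-tang high, against 46.0, 49.8 and 47.0 CPM in Palmul-tang low. All 3 were separated between doses. In Sibjeondaebo-tang high, HSD17B7 was at 40.2, 42.5 and 37.0 CPM, against 47.9, 44.8 and 45.8 CPM in Sibjeondaebo-tang low (-0.21 ± 0.057, SE), and ERG28 at 108, 118 and 121 CPM, against 133, 132 and 125 CPM (-0.17 ± 0.061, SE). Neither of these calls was firm: HSD17B7 lost it without low replicate 1 (adjusted p = 0.0529) or high replicate 3 (0.0519), and ERG28 without high replicate 1 (0.219), high replicate 2 (0.0711), low replicate 1 (0.138) or low replicate 2 (0.133).

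The other 3 genes of this stretch that fell in Palmul-tang were, like TM7SF2, not called between high and low dose in Sibjeondaebo-tang or Samul-tang. SC5D, the sterol desaturase, was at 189, 193 and 187 CPM in Palmul-tang high, against 209, 220.1 and 232 CPM in Palmul-tang low, and lost its call without low replicate 3 (adjusted p = 0.0666). CYP51A1, the lanosterol demethylase that azole drugs act on in fungi, was at 244, 242 and 245 CPM in Palmul-tang high, against 281, 295 and 274 CPM in Palmul-tang low, and lost its call without low replicate 2 (0.0678). CYP51A1 shares 79.4% of its exonic bases with a readthrough gene on the same strand, so the division of reads between them is an estimate. DHCR7, the last reductase of a branch of the pathway, was at 299, 264 and 318 CPM in Palmul-tang high, against 348, 325 and 329 CPM in Palmul-tang low. Its call (-0.19 ± 0.056, SE) was lost whichever library was left out, high replicate 3 excepted, with an adjusted p of 0.0655 without high replicate 1, 0.301 without high replicate 2, 0.167 without low replicate 1, 0.0615 without low replicate 2, 0.0712 without low replicate 3 and 0.0893 when only high and low Palmul-tang were fitted. MSMO1, NSDHL and EBP, which act on the methyl groups and the ring double bond, were called in none of the 3 high-against-low comparisons, with log2 fold changes of -0.16, -0.10 and -0.17 in Palmul-tang.

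**Figure D2:**
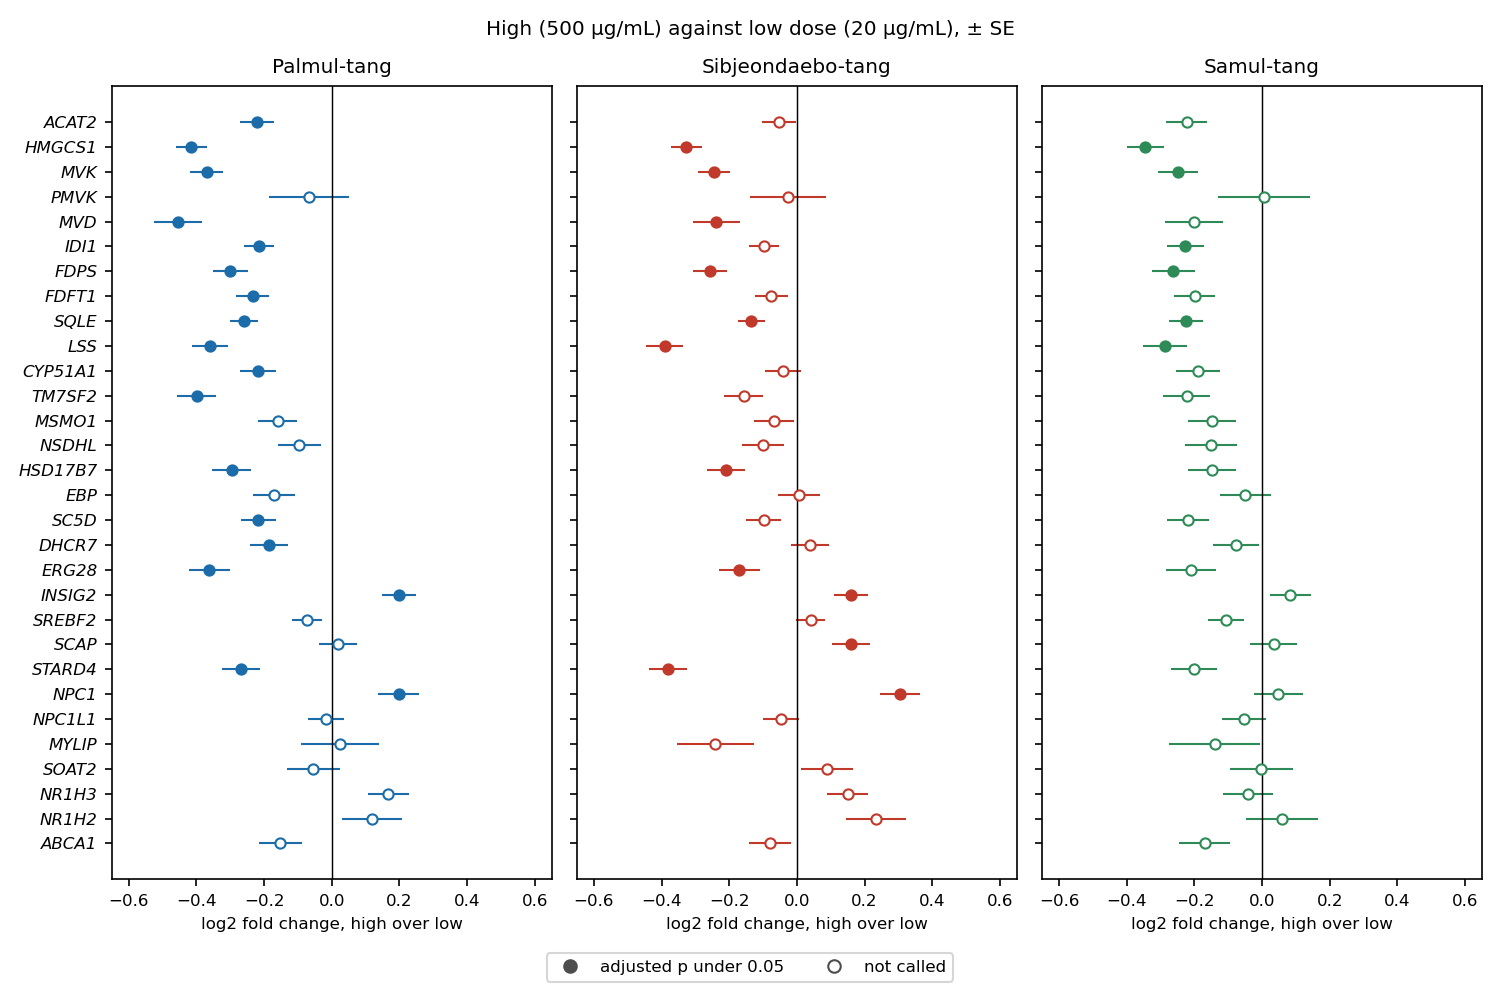
Log2 fold change of high (500 µg/mL) over low dose (20 µg/mL) ± SE for the 30 tested genes in Palmul-tang, Sibjeondaebo-tang and Samul-tang, with filled points for an adjusted p under 0.05. The 19 synthesis genes at the top lie left of 0 in all but 2 cases in Sibjeondaebo-tang and 1 in Samul-tang, and INSIG2 and NPC1 lie right of 0 in each panel.

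Among the sensing genes, 1 rose in Palmul-tang, 2 rose in Sibjeondaebo-tang and none fell. SREBF2 (ENSG00000198911, chromosome 22, 41833079 to 41907308, plus strand) was at 199, 183 and 179 CPM in Palmul-tang high, against 196, 196 and 198 CPM in Palmul-tang low. It was at 209, 206 and 199 CPM in Sibjeondaebo-tang high, against 200.3, 203 and 195 CPM in Sibjeondaebo-tang low. The ranges overlapped in both, and the 95% interval of the log2 fold change was -0.16 to 0.02 in Palmul-tang and -0.05 to 0.13 in Sibjeondaebo-tang. In Samul-tang high it was at 180.0 and 189 CPM, below the 195 and 203 CPM of Samul-tang low, with a log2 fold change of -0.11 that did not pass the test (-0.22 to 0.002, 95% interval). INSIG2 (ENSG00000125629, chromosome 2, 118088452 to 118110997, plus strand), an anchor of SCAP in the endoplasmic reticulum, rose. It was at 62.1, 57.9 and 54.7 CPM in Palmul-tang high, against 49.8, 52.7 and 49.8 CPM in Palmul-tang low (0.20 ± 0.05 (SE), adjusted p = 0.0122). It was at 59.1, 61.0 and 58.7 CPM in Sibjeondaebo-tang high, against 55.4, 52.4 and 52.3 CPM in Sibjeondaebo-tang low (0.16 ± 0.05 (SE), adjusted p = 0.0213). High and low libraries were apart in both, but the steps were small beside those of HMGCS1. The Palmul-tang call was lost without high replicate 1 (adjusted p = 0.126), low replicate 1 (0.0512) or low replicate 3 (0.0641). The Sibjeondaebo-tang call was lost without high replicate 2 (0.0865), high replicate 3 (0.0683), low replicate 2 (0.0846) or low replicate 3 (0.0827), the last being the library with fibroblast transcripts, and also with no filter on low counts (0.206) and with mitochondrial genes removed (0.0553).

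SCAP rose in Sibjeondaebo-tang high, to 83.3, 90.6 and 84.3 CPM, against 76.9, 79.7 and 74.7 CPM in Sibjeondaebo-tang low (0.16 ± 0.056 (SE), adjusted p = 0.044). The call did not hold under other settings: median-ratio scaling gave an adjusted p of 0.0868, DESeq2 0.0878, no filter 0.178 and removal of mitochondrial genes 0.0993. It was also lost without high replicate 2 (0.207), high replicate 3 (0.107), low replicate 1 (0.104), low replicate 2 (0.0536) or low replicate 3 (0.157). INSIG1, the other INSIG gene, was near 0. It had at most 3 counts (0.0884 CPM) in 29 libraries. In Sibjeondaebo-tang low replicate 3, the library with fibroblast transcripts, it had 15 counts (0.474 CPM). Whether the deposited estimate for this gene is sound could not be settled from the table, so nothing is read from its level.

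Among the transport genes, 1 fell and 1 rose in Palmul-tang and in Sibjeondaebo-tang. STARD4 (ENSG00000164211, chromosome 5, 111496033 to 111512590, minus strand), a soluble carrier of cholesterol between membranes, was at 65.4, 66.9 and 65.5 CPM in Sibjeondaebo-tang high, against 90.2, 84.9 and 82.5 CPM in Sibjeondaebo-tang low (-0.38 ± 0.056 (SE), adjusted p = 6.79e-06). It was at 74.7, 71.5 and 70.9 CPM in Palmul-tang high, against 85.8, 91.4 and 84.4 CPM in Palmul-tang low (-0.27 ± 0.056 (SE), adjusted p = 0.00184). Neither pair of groups overlapped. NPC1 (ENSG00000141458, chromosome 18, 23506184 to 23586898, minus strand), which exports cholesterol from lysosomes, rose to 136, 136 and 139.6 CPM in Sibjeondaebo-tang high, against 113, 114 and 107 CPM in Sibjeondaebo-tang low (0.30 ± 0.059 (SE), adjusted p = 0.000365). It was at 138, 122 and 124 CPM in Palmul-tang high, against 112, 116 and 107 CPM in Palmul-tang low (0.20 ± 0.06 (SE), adjusted p = 0.0399). The Sibjeondaebo-tang step kept its call with any library left out, whereas the Palmul-tang call was lost without high replicate 1 (adjusted p = 0.265), high replicate 3 (0.0529), low replicate 1 (0.0871), low replicate 2 (0.0563) or low replicate 3 (0.171). NPC1L1, the sterol uptake transporter that ezetimibe blocks, SOAT2, which esterifies cholesterol, and MYLIP, a ubiquitin ligase for lipoprotein receptors, were not called in any of the 3 high-against-low comparisons. MYLIP was low in every library, at 3.29 to 4.88 CPM.

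The LXR arm was not called in any high-against-low comparison. NR1H3, the gene of LXR alpha, was at 23.1, 23.9 and 24.4 CPM in Palmul-tang high, against 20.7, 22.2 and 20.6 CPM in Palmul-tang low (0.17 ± 0.061 (SE), adjusted p = 0.102). NR1H2, the gene of LXR beta, was at 9.84, 10.3 and 10.0 CPM in Sibjeondaebo-tang high, against 8.45, 8.29 and 8.95 CPM in Sibjeondaebo-tang low (0.23 ± 0.088 (SE), adjusted p = 0.0587). ABCA1, the efflux pump and a classic LXR target, was at 122, 113 and 114 CPM in Palmul-tang high, against 128, 131 and 128 CPM in Palmul-tang low (-0.15 ± 0.062 (SE), adjusted p = 0.163). High and low libraries were separated in these 3 pairs and also for NR1H3 in Sibjeondaebo-tang and ABCA1 in Samul-tang, and overlapped for NR1H2 and NR1H3 in Samul-tang, NR1H2 in Palmul-tang and ABCA1 in Sibjeondaebo-tang. Of all genes, 12.4% lay wholly above their low-dose libraries in Palmul-tang, 23.3% in Sibjeondaebo-tang and 19.4% in Samul-tang, beside the shares wholly below given earlier. ABCG1, another efflux pump, had at most 0.0929 CPM in any library.

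**Figure D3:**
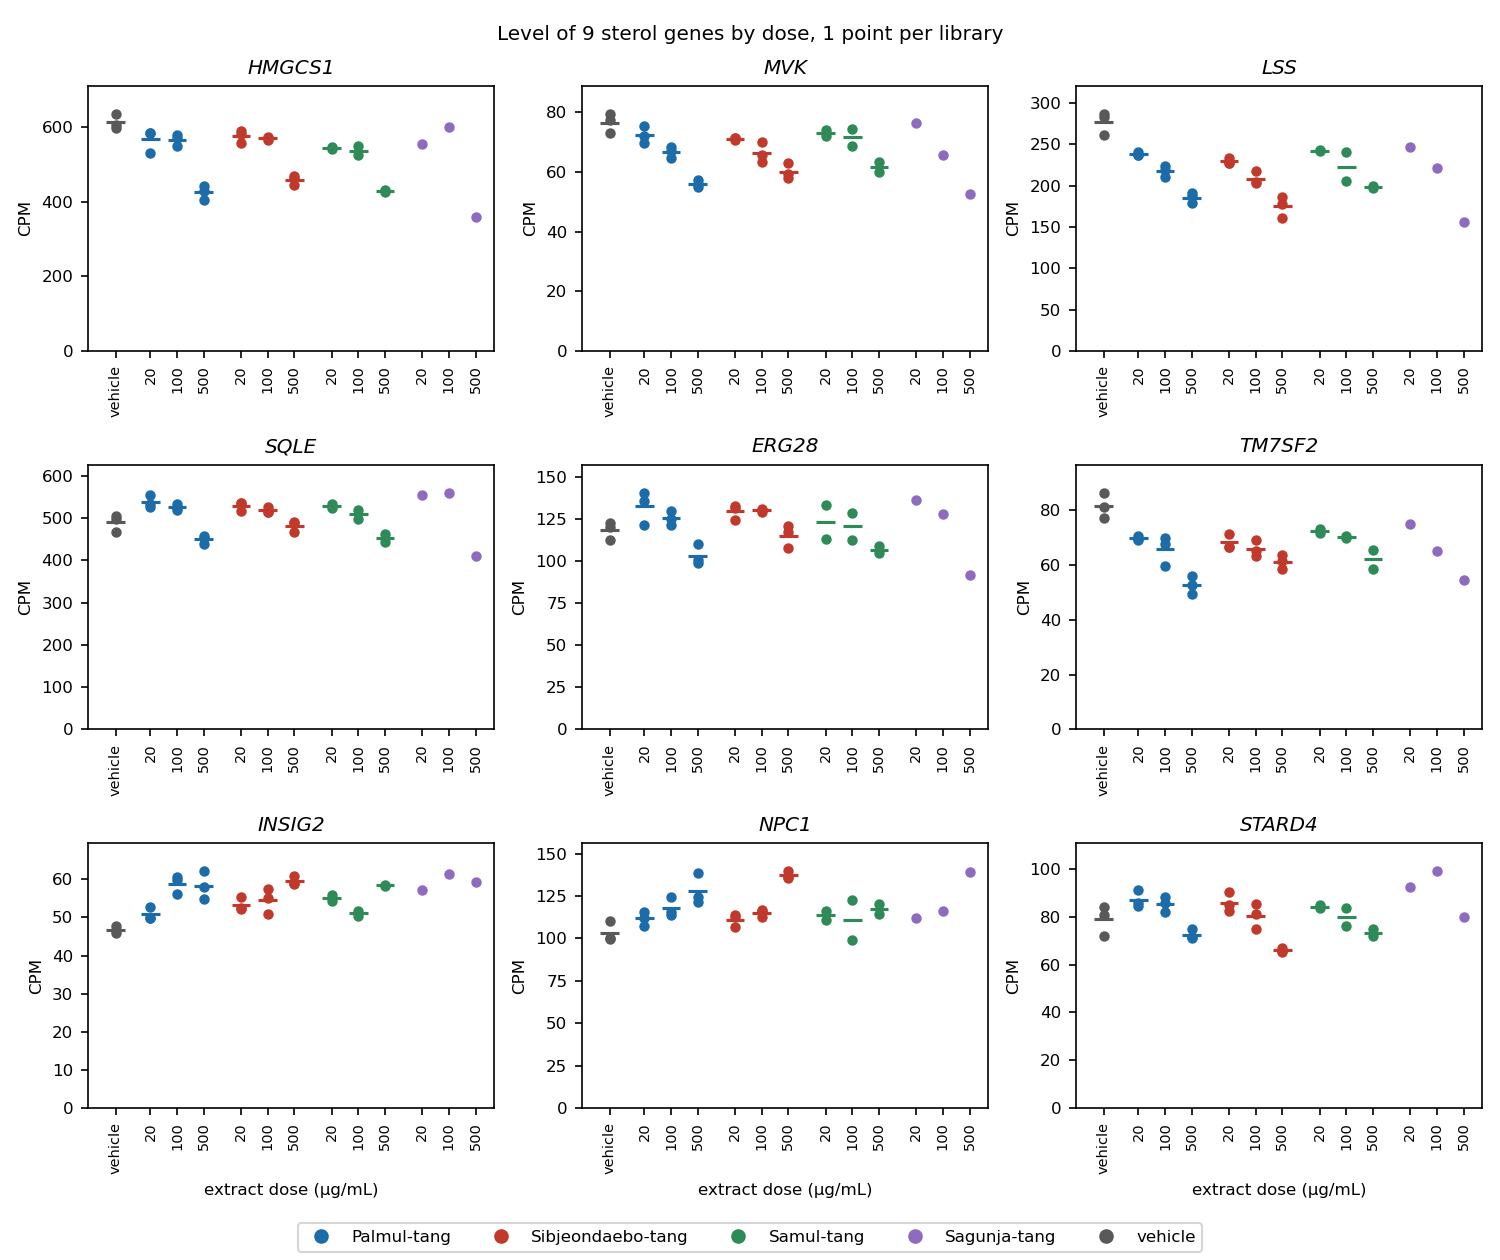
CPM of 9 sterol genes in each library at 20, 100 and 500 µg/mL of the 4 formulas and in vehicle, with a bar at the mean of each group of 2 or 3 libraries. HMGCS1, SQLE, ERG28 and STARD4 lie at about the same height at 20 and 100 µg/mL of Palmul-tang and lower at 500 µg/mL, the mean of LSS is lower at each higher dose, and INSIG2 and NPC1 lie above vehicle at 500 µg/mL.

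The doses were also set against vehicle. In Palmul-tang most of the falls were called at the highest dose: 4 genes rose and 3 fell at 20 µg/mL (11.5% and 11.7% of all genes), 4 rose and 3 fell at 100 µg/mL (11.6% and 10.8%), and 3 rose and 18 fell at 500 µg/mL (16.3% and 15.6%). In Sibjeondaebo-tang, 3 rose and 4 fell at 20 µg/mL (11.5% and 11.5%), 5 rose and 8 fell at 100 µg/mL (15.3% and 14.8%), and 4 rose and 12 fell at 500 µg/mL (19.3% and 16.7%). In Samul-tang, 3 rose and 2 fell at 20 µg/mL (6.47% and 4.79%), 3 rose and 8 fell at 100 µg/mL (10.3% and 9.57%), and 2 rose and 12 fell at 500 µg/mL (9.82% and 8.69%). At 20 µg/mL the share of sterol genes called, 23.3% in both Palmul-tang and Sibjeondaebo-tang, was thus near that of all genes, 23.2% and 23%. These 9 comparisons share the vehicle libraries, so their calls are not independent of each other.

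HMGCS1 averaged 613 ± 19.2 CPM in vehicle and 567 ± 31.1, 567 ± 14.7 and 426 ± 19.7 CPM at 20, 100 and 500 µg/mL of Palmul-tang (SD, n = 3). The levels at 20 and 100 µg/mL did not differ beyond their spread. Of the Palmul-tang doses only the highest was called against vehicle (-0.53 ± 0.045 (SE), adjusted p = 2.57e-10). Over all formulas HMGCS1 fell at 5 of 9 doses, which include Samul-tang medium (-0.19) and Samul-tang low (-0.17). Its call was kept in every alternative at 3 of them, the high doses of Palmul-tang, Sibjeondaebo-tang and Samul-tang. LSS fell at all 9 doses, from -0.19 in Samul-tang low to -0.66 in Sibjeondaebo-tang high on the log2 scale, and TM7SF2 fell at 8, with -0.63 ± 0.058 (SE), adjusted p = 1.08e-09 in Palmul-tang high. The LSS call was kept in every alternative at 7 doses; at Samul-tang low it was lost without vehicle replicate 2 (adjusted p = 0.104), vehicle replicate 3 (0.107), low replicate 2 (0.147) or low replicate 3 (0.177), and at Samul-tang medium without replicate 2 (0.0717) or in a fit of those groups alone (0.0865). TM7SF2 kept its call in every alternative at 6 of its 8 doses, and MVK, which fell at 5 doses, at all 5. MSMO1 fell at 5 doses and kept its call throughout at 2, Palmul-tang high (-0.29 ± 0.058, SE) and Samul-tang high (-0.30 ± 0.065, SE). Some genes of the same pathway were above vehicle at the lower doses. SC5D rose at 7 of 9 doses, all but Palmul-tang high and Samul-tang high, with means of 187 ± 14 CPM in vehicle and 221 ± 11.6, 212 ± 7.81 and 189.7 ± 2.92 CPM at 20, 100 and 500 µg/mL of Palmul-tang (SD, n = 3). The SC5D call was kept in every alternative at 3 of the 7, Palmul-tang low, Sibjeondaebo-tang medium and Sibjeondaebo-tang low. HSD17B7 rose at 4 doses, none of them high, and kept its call throughout at Palmul-tang medium only. SQLE rose at Palmul-tang low (0.14 ± 0.041, SE) and Sibjeondaebo-tang low (0.11 ± 0.041, SE) and fell at Palmul-tang high (-0.12 ± 0.041, SE), but none of these calls was firm. The Palmul-tang low call was lost without vehicle replicate 2 (adjusted p = 0.0841) or low replicate 3 (0.093), and the Sibjeondaebo-tang low call without vehicle replicate 2 (0.211) or 3 (0.0624), without any low library (0.058 to 0.14) and with no filter on low counts (0.104). The Palmul-tang high call was lost without vehicle replicate 1 (0.106) or 3 (0.0704), without high replicate 2 (0.0895), with no filter (0.163) and in a fit of those groups alone (0.0687).

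INSIG2 also rose at 7 of 9 doses, with means of 46.8 ± 0.92 CPM in vehicle and 53.4 ± 1.77, 54.5 ± 3.24 and 59.6 ± 1.21 CPM at 20, 100 and 500 µg/mL of Sibjeondaebo-tang (SD, n = 3), and its call was lost only at Samul-tang low, without replicate 3 (adjusted p = 0.0899). NPC1 and NR1H3 rose at 5 doses each, NPC1 by 0.41 and NR1H3 by 0.29 on the log2 scale where the change was greatest. NPC1 kept its call in every alternative at 2 of the 5, Palmul-tang high and Sibjeondaebo-tang high, and elsewhere its adjusted p reached 0.282. NR1H3 kept its call at Palmul-tang high only, and elsewhere its adjusted p reached 0.757. SOAT2 fell at 5 doses and NPC1L1 at 2, with log2 fold changes of -0.26 and -0.17 where they were lowest, and neither kept its call in every alternative at any dose. ABCA1 fell at 2 doses, Palmul-tang high (-0.20 ± 0.062, SE) and Samul-tang medium (-0.28 ± 0.07, SE), and the Samul-tang medium libraries, which lay far apart in general, were at 94.5 and 126 CPM. Its Samul-tang medium log2 fold change was -0.08 (adjusted p = 0.513) without replicate 2 and -0.49 without replicate 3, and its Palmul-tang high call was lost without vehicle replicate 3 (0.086), high replicate 2 (0.0681) or high replicate 3 (0.0532). SREBF2, NSDHL, MYLIP and NR1H2 were called at no dose. Several of these counts moved with 1 library. For Palmul-tang low, 7 calls became 3 without vehicle replicate 2 and 4 without low replicate 3. For Sibjeondaebo-tang medium, 13 became 8 without vehicle replicate 2 or 3 and 7 without medium replicate 2, and for Sibjeondaebo-tang low, 7 became 4 without replicate 3, the library with fibroblast transcripts, where IDI1, SQLE and SOAT2 lost the call (adjusted p 0.0501 to 0.058). For Samul-tang, 14 calls at the high dose became 9 without replicate 3, 11 at the medium dose became 2 without replicate 2 and 0 when vehicle and Samul-tang medium were fitted alone, and 5 at the low dose became 2 without vehicle replicate 2, 3 without vehicle replicate 3, 1 without low replicate 2 and 0 without low replicate 3. Of the 11 Samul-tang medium calls, all were kept without replicate 3, and that of HMGCS1 alone was kept without replicate 2, the others having an adjusted p of 0.0717 to 0.757.

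Sibjeondaebo-tang was set against Palmul-tang at each dose to compare the 2 formulas as whole extracts. Doses were matched by mass of extract, so the amount of each Palmul-tang herb may also differ between them. What the added herbs did by themselves was not tested. At 500 µg/mL, 18 of the 19 synthesis genes had a higher level in Sibjeondaebo-tang than in Palmul-tang (median log2 fold change 0.11), or 17 when mitochondrial genes were removed or median-ratio scaling was used. The median over all tested genes was 0.026. With mitochondrial genes removed it was 0.001, and that of the synthesis genes was 0.089. In the main fit ACAT2, CYP51A1 and TM7SF2 passed the test and none fell, where 1.75% of all genes were higher and 4.72% lower. TM7SF2 was at 61.5, 63.7 and 58.6 CPM in Sibjeondaebo-tang high, against 56.0, 52.8 and 49.6 CPM in Palmul-tang high (0.21 ± 0.058 (SE), adjusted p = 0.0231). CYP51A1 was at 267, 282 and 287 CPM in Sibjeondaebo-tang high, against 244, 242 and 245 CPM in Palmul-tang high (0.20 ± 0.053 (SE), adjusted p = 0.0213). ACAT2 was at 279.7, 264 and 266 CPM in Sibjeondaebo-tang high, against 246, 229 and 242 CPM in Palmul-tang high (0.18 ± 0.05 (SE), adjusted p = 0.0286). All 3 were separated between the formulas, but they were picked by the test on the same libraries, so this adds no separate support. In Sibjeondaebo-tang high, 10 tested sterol genes lay wholly above Palmul-tang high and 2 wholly below, where 14.3% and 11.4% of all genes did. The count of 3 became 1 without any 1 of the Sibjeondaebo-tang high libraries, 0 without Palmul-tang high replicate 2, 1 when only these 2 groups were fitted, and 1 with mitochondrial genes removed, a setting in which the calls over all genes were 126 higher and 879 lower, against 282 and 759, and 148 higher and 839 lower with median-ratio scaling. LSS and STARD4 ran the other way without passing the test, at -0.09 ± 0.054 and -0.14 ± 0.057 (SE).

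At 100 and 20 µg/mL none of the 30 genes was called between the formulas; at an unadjusted p under 0.05 there were 2 and 0, and DESeq2 called 0 and 0. At 20 µg/mL the count was also 0 without Sibjeondaebo-tang low replicate 3. Of all genes, 0.0311% were called at 100 µg/mL and 0% at 20 µg/mL. The difference between the high-against-low effects was tested too. None of the 30 genes was called for Sibjeondaebo-tang minus Palmul-tang (8 at an unadjusted p under 0.05, 0 by DESeq2, and 2% of all genes by edgeR), although the difference was above 0 for 17 of the 19 synthesis genes. The median difference was 0.12 for the synthesis genes and 0.023 over all tested genes. The gene nearest to a call was TM7SF2, with 0.24 ± 0.082 (SE), a 95% interval of 0.08 to 0.41 and an adjusted p of 0.155. For Samul-tang minus Palmul-tang none was called either (2 at an unadjusted p under 0.05, 0 by DESeq2, and 0.0124% of all genes by edgeR), so the larger count of calls in Palmul-tang is not shown to be a larger response.

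**Figure D4:**
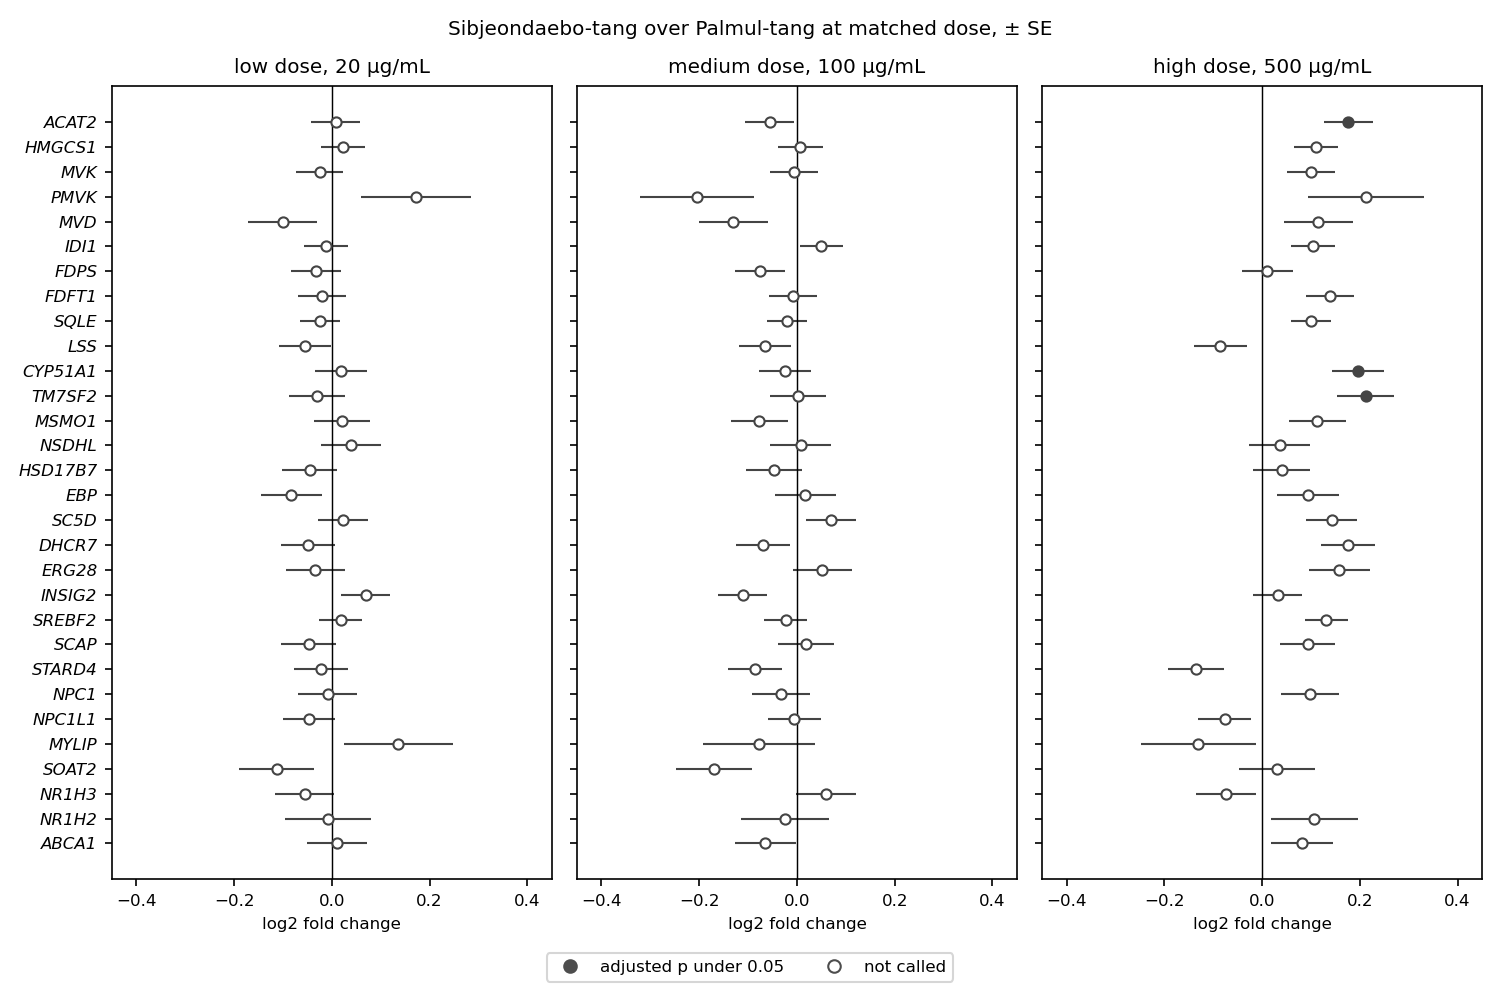
Log2 fold change of Sibjeondaebo-tang over Palmul-tang ± SE at 20, 100 and 500 µg/mL for the 30 tested genes, with filled points for an adjusted p under 0.05. The points scatter about 0 at the 2 lower doses and lie mostly right of 0 for the synthesis genes at 500 µg/mL, where ACAT2, CYP51A1 and TM7SF2 are filled.

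Sagunja-tang had 1 library per dose, so its differences have no replicate check and no test. At 500 against 20 µg/mL, 13 of the 30 genes were lower by at least 0.32 on the log2 scale and 0 were higher, where 14.8% of all genes were lower and 11.6% higher by that much, and the median of the 30 genes was -0.26 on the log2 scale. HMGCS1 was at 359 CPM in Sagunja-tang high, against 554 CPM in Sagunja-tang low. LSS was at 156 CPM in Sagunja-tang high, against 247 CPM in Sagunja-tang low. MVD was at 107 CPM in Sagunja-tang high, against 168 CPM in Sagunja-tang low. HMGCS1 and LSS fell in all 3 replicated formulas and MVD in 2 of them, and here log2 ratios were -0.63 for HMGCS1, -0.67 for LSS and -0.65 for MVD. NPC1 was at 139 CPM in Sagunja-tang high, against 112 CPM in Sagunja-tang low, and INSIG2 at 59.2 CPM, against 57.3 CPM. At 100 against 20 µg/mL, 0 of the 30 passed that limit in either direction, where 17.8% of all genes did, and HMGCS1 was at 599.7 CPM at 100 µg/mL.

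Neighbouring pathways were read from 6 further lists, chosen with earlier results of these data known, in high against low dose. Of the 13 tested genes of SREBP1 and fatty acid synthesis, 6 fell and 0 rose in Palmul-tang, 3 fell in Sibjeondaebo-tang and 2 fell in Samul-tang, against the shares of all genes given above. ACSS2, which makes acetyl-CoA from acetate, was at 107 ± 4.42 CPM in Palmul-tang high and 158 ± 2.3 CPM in Palmul-tang low (SD, n = 3 each), a log2 fold change of -0.56 ± 0.042 (SE), adjusted p = 4.84e-11, and fell in the other two formulas as well (-0.39 and -0.41). FADS2, a fatty acid desaturase, was at 275 ± 3.95 CPM in Palmul-tang high and 372 ± 14.6 CPM in Palmul-tang low (-0.44 ± 0.04 (SE), adjusted p = 2.86e-09), and FADS1 had -0.28 ± 0.049 (SE), adjusted p = 0.00029. Of 17 tested genes of uptake and intracellular transport, 2 rose and 1 fell in Palmul-tang, 6 rose and 1 fell in Sibjeondaebo-tang, and 2 rose and 1 fell in Samul-tang. LRP8, a lipoprotein receptor, rose in Palmul-tang (0.32 ± 0.051 (SE), adjusted p = 6.48e-05) and GRAMD1A, which moves cholesterol from the plasma membrane, rose in all 3 formulas (0.29, 0.23 and 0.25).

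Of all genes, 3.03% fell and 3.75% rose in Palmul-tang. The shares were 9.44% and 10.4% in Sibjeondaebo-tang, and 0.715% and 0.709% in Samul-tang. With 6 to 11 genes per list below, a count of 0 or 1 says little beside these shares. Of 6 other sterol synthesis genes, 2 fell in Palmul-tang, 1 rose in Sibjeondaebo-tang (AACS, which activates acetoacetate, 0.19) and 0 were called in Samul-tang. Of 9 genes of SREBP cleavage and enzyme turnover, 1 fell in Palmul-tang, and this was TMEM97, a sterol-regulated membrane protein (-0.28 ± 0.048 (SE), adjusted p = 0.000206); 3 rose and 1 fell in Sibjeondaebo-tang, and 0 were called in Samul-tang. The protease gene MBTPS2 (0.18) and FAF2 (0.12) were among those that rose, and UBE2G2 (-0.16) fell. Of 9 genes of the isoprenoid and dolichol branch, which leaves the mevalonate pathway at farnesyl diphosphate, 0 were called in any formula, with medians of 0.05, 0.08 and -0.005 in Palmul-tang, Sibjeondaebo-tang and Samul-tang. Of 11 tested LXR partners and targets, 0 were called in Palmul-tang and Samul-tang, and 2 rose and 3 fell in Sibjeondaebo-tang. The lowest of these was ABCG5, part of a sterol efflux pump of the hepatocyte (-0.70 ± 0.081 (SE), adjusted p = 1.27e-07). AACS, MBTPS2, FAF2, UBE2G2 and ABCG5 were chosen for naming after their values were seen.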

How the data were processed

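The libraries were made with a directional mRNA kit from total RNA and sequenced as paired ends, per the labels' protocols. The authors deposited expected counts per Ensembl gene for several batches, and 240 columns without a sample in this set were left unread. The submitters' processing notes name STAR 2.7.3a, RSEM 1.3.3, Trim Galore 0.6.5 and FastQC 0.11.9, and the builds hg38 and GRCh38. The deposited expected counts share reads among near-identical genes by estimate, and 8.56% of values were not whole. For the vehicle, the DMSO content is 0.1% in the sample labels, which is the value printed, and 2% in the series text.

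Expected counts were rounded. Filtering by filterByExpr (minimum count 10, minimum total 15) left 16083 genes. edgeR 4.0.16 (R 4.3.3) fitted 1 robust quasi-likelihood model with TMM factors to the 27 libraries of the 10 replicated groups (17 residual degrees of freedom, biological coefficient of variation 5.47%), and 17 comparisons were tested two-sided at 0.05. SE was taken as |log2 fold change|/√F. Sagunja-tang was described by log2 CPM ratios with a prior count of 2 and a limit of 0.32 either way. Symbols matched 56558 rows; positions are from GENCODE 29 on GRCh38. The members and lists were chosen with earlier results of these data known. Values in every library are given for members called in a high against low comparison, full statistics for up to 8 per comparison by smallest adjusted p, and up to 3 called genes per other list by adjusted p in Palmul-tang; some genes these rules take are not reported here. Alternatives were DESeq2 1.42.0, median-ratio factors, no filter, removal of mitochondrial genes, a fit of only the compared groups, a block for the replicate number, leaving out each replicate, and for Sagunja-tang a prior count of 0.5. The scripts were tested on simulated counts.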

Additional observations from a re-analysis of the deposited data

How the results depend on the processing

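No called member's log2 fold change reversed under the alternatives run. With 1 library left out, called members kept the call in 596 refits and lost it in 202, and under the other settings they kept it in 781 and lost it in 59; the cause was not tested. With 1 library left out, the count of members called ranged from 17 to 20 in Palmul-tang high, 6 to 8 in Palmul-tang medium, 3 to 8 in Palmul-tang low, 11 to 17 in Sibjeondaebo-tang high, 7 to 10 in Sibjeondaebo-tang medium, 4 to 7 in Sibjeondaebo-tang low, 9 to 12 in Samul-tang high, 2 to 15 in Samul-tang medium and 0 to 4 in Samul-tang low, all against vehicle. It ranged from 14 to 18 for Palmul-tang high against low, 7 to 10 for Sibjeondaebo-tang, 1 to 2 for Samul-tang, and 0 to 3 between Sibjeondaebo-tang and Palmul-tang at the high dose. A lone library left in a Samul-tang group was assumed to vary like the other groups. When the compared groups were fitted alone, with fewer libraries behind the spread, the counts were 12 for Sibjeondaebo-tang low against vehicle (7 in the joint fit), 0 for Samul-tang medium against vehicle (11), 3 for Samul-tang high against low (6) and 1 between Sibjeondaebo-tang and Palmul-tang at the high dose (3). Without a filter on low counts they were 3 for Samul-tang low against vehicle (5) and 3 for Samul-tang high against low (6), and with mitochondrial genes removed 1 between Sibjeondaebo-tang and Palmul-tang at the high dose (3). Over all genes, Samul-tang high against low had 376 calls without the filter, 230 higher and 146 lower, against 229, and Samul-tang medium against vehicle had 116 higher and 117 lower when fitted alone, against 1649 and 1539. Whether replicate numbers pair the samples was not settled. Deviations from the group means correlated at -0.17 to 0.108 for same-numbered libraries of the groups compared. For differently numbered libraries the range was -0.121 to 0.121. Centring on the means of such small groups constrains these values, so they cannot decide it. With the number as a replicate block, 18 members were called in Palmul-tang, 13 in Sibjeondaebo-tang and 8 in Samul-tang for high against low. INSIG1 and ABCG1 were below the depth needed for a test.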
